A study of Mus musculus with 12 samples.

Results

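Fbp1, Hk1, Hk2, Hk3, Pfkl, Pfkp, Pfkfb3, Ldha, Slc2a1 and Pgk1 are 10 genes of glycolysis and gluconeogenesis, the pathways that break glucose down and rebuild it. They were followed in lung CD11c+ cells of mice infected with Pneumocystis, a fungus of the lung. A probe set was taken where its single gene symbol was one of these names, which gave 21 of the 34945 probe sets with 1 symbol and 10 of the 18193 genes. The genes were chosen by role and selected on the log2 ratios and group differences of these same arrays, so their values below are a description, and no test of them is given as support. The groups were IFNAR-/- mice at day 14 after infection, wildtype mice at day 14, IFNAR-/- mice at day 7 and wildtype mice at day 7, with 3 mice and 3 Affymetrix arrays in each. IFNAR is the receptor for type I interferons. All 12 mice carried the infection, which had been given through the trachea, and no uninfected mouse was compared. The labels call the deficient mice IFNAR-/- and give no cell type for the loss, no background strain, no age and no sex. Cells were taken with CD11c beads at a purity above 90%, with lymphocytes below 5%, per the labels. CD11c marks alveolar macrophages and dendritic cells alike, so in these bulk samples fewer cells of one type and less RNA per cell cannot be told apart.

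Hexokinases trap glucose in the cell as a phosphate, phosphofructokinase commits it to breakdown, and lactate dehydrogenase makes lactate at the end of the path. Fructose bisphosphatase, the product of Fbp1, runs the phosphofructokinase step backwards and is a control point of gluconeogenesis. Macrophages and dendritic cells raise glycolysis when they are activated, and the transcription factor HIF-1, which low oxygen and inflammatory signals stabilise, drives many genes of the path through a short promoter motif called the hypoxia response element.

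The promoter sequences of 4 of the genes are printed here. Hk3, Ldha and Pgk1 are among the 4 members that were lower in IFNAR-/- than in wildtype cells at day 7 without overlap. Hk2, the other of these 4, is not printed. Fbp1 had another pattern. RefSeq, on assembly GRCm38.p6, gave 13 promoters for the 10 genes, each from 250 bases before to 50 bases after the start. The core letters ACGTG or GCGTG of the hypoxia response element were searched on both strands, and a match is in capitals. A palindromic match such as the CACGTG in the Ldha promoter is counted on each strand.
Fbp1, chr13:62888233-62888532, minus strand: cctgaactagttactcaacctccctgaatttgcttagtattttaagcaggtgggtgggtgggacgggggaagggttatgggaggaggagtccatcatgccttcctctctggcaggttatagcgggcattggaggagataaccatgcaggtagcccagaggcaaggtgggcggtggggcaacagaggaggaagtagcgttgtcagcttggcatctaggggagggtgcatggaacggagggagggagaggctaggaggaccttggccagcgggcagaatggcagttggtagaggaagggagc
Hk3, chr13:55021336-55021635, minus strand: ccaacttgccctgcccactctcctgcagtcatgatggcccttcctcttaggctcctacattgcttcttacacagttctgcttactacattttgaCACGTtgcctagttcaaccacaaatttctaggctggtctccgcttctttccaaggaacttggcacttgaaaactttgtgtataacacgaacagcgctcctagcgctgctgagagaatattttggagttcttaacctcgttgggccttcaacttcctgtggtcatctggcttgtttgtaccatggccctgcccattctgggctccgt
Ldha, chr7:46845554-46845853, plus strand: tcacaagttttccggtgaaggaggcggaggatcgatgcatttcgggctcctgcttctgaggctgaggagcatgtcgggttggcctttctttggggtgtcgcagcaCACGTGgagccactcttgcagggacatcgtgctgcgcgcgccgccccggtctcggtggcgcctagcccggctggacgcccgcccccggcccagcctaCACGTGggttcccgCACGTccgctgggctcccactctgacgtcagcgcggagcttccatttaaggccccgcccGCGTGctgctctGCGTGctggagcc
Pgk1, chrX:106186850-106187149, plus strand: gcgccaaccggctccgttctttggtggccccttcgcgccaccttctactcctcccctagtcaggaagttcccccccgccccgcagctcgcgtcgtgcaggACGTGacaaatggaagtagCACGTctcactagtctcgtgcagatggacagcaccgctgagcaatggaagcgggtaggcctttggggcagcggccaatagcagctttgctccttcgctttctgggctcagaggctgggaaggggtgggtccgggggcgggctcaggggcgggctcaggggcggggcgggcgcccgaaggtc
The Fbp1 window held 0 matches, the Hk3 window 1, the Pgk1 window 2 and this Ldha window 7. The Hk2 window held 2. Windows of the members whose groups overlapped at day 7 held matches too. Pfkl had 1, Pfkp 4, Slc2a1 2 and the Pfkfb3 windows 1 and 4, while the Hk1 windows had 0 and 5. The motif was therefore not confined to the members that were lower at day 7. Of the 13 promoters 11 held at least 1 match, in 9 of the 10 genes, and 43.8% of all 32851 promoters of the same length did so. ACGTG was present in 19.6% of all promoters and GCGTG in 32.4%. The interferon-stimulated motif, GAAA followed by any 2 bases and GAAA again, was in 0 of the 13 promoters and in 3.4% of all promoters. The STAT motif TTCNNNGAA was in 0 of the 13 and in 8.3% of all, both searched on either strand. A match is a run of letters in this window and does not show that a factor binds there.

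The deposited value is a linear ratio of each probe set to about its own median over the 12 arrays, so a log2 ratio of 0 is that median and levels of different genes cannot be set against each other. Probe sets of a gene were averaged as log2 ratios. Itgax, the CD11c gene, ranged from -0.28 to 0.25 over the 12 arrays, but a ratio to a median cannot show how strongly a marker is expressed. Signals of RNA handling moved with the groups: the ratio of 5′ to 3′ signal of control transcripts lay at 0.06 to 0.16 in IFNAR-/- day 14 cells, at -0.91 to -0.18 in wildtype day 14 cells, at -0.52 to 0.11 in IFNAR-/- day 7 cells and at 0.08 to 0.18 in wildtype day 7 cells on the log2 scale. The poly-A control signal was at -1.75 to 0.17 in IFNAR-/- day 14 cells, at -3.48 to -1.94 in wildtype day 14 cells, at -3.60 to 1.41 in IFNAR-/- day 7 cells and at 0.83 to 2.15 in wildtype day 7 cells. Of 2 arrays that stood apart, IFNAR-/- day 7 mouse 3 had median log2 ratios of 2.60 for 10 endothelial, 2.07 for 12 lung epithelial and 2.04 for 9 neutrophil markers. IFNAR-/- day 14 mouse 2 had an interquartile range over all probe sets of 0.58, against 0.19 to 0.37 on the other arrays. Wildtype day 7 mouse 1 also carried epithelial markers at 1.66 and endothelial markers at 1.74. One Ifnar1 probe set, 1449026_at, was lower in IFNAR-/- cells by 0.80 ± 0.30 at day 14 and by 1.26 ± 0.30 at day 7 (log2, ± SE), and neither difference passed the threshold per probe set. The other, 1442222_at, lay at 0.25, -1.39 and 0.77 in IFNAR-/- day 14 cells and at -0.53, -0.73 and -0.39 in wildtype day 14 cells. Which part of the gene either probe set reads is not given in the sources used here, so this is no check of the genotype.

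Fbp1 was the member that differed most between genotypes, and it was high in wildtype cells. Its log2 ratio on its 1 probe set was -0.08, -0.25 and 0.06 in IFNAR-/- day 14 cells and 6.78, 3.78 and 4.76 in wildtype day 14 cells. At day 7 it was -0.89, -1.12 and -1.54 in IFNAR-/- cells and 0.24, -1.12 and 5.07 in wildtype cells. At day 14 every IFNAR-/- array lay below every wildtype array, while at day 7 the groups overlapped, since 1 of the 3 wildtype mice was as low as the IFNAR-/- mice and 1 was as high as the day 14 wildtype mice. On the linear scale the wildtype day 14 mice stood at 109.8, 13.7 and 27.0 times the median of the probe set, and wildtype day 7 mouse 3 at 33.6 times. All 6 IFNAR-/- mice stood between 0.343 and 1.04 times that median.

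The mean log2 ratio of Fbp1 was -0.09 ± 0.16 in IFNAR-/- day 14 cells and 5.10 ± 1.53 in wildtype day 14 cells (SD, n = 3 each), a difference of -5.20 ± 1.25 (SE), or 36.7-fold lower. At day 7 the means were -1.19 ± 0.33 in IFNAR-/- cells and 1.40 ± 3.25 in wildtype cells (SD, n = 3 each), a difference of -2.59 ± 1.25. Without wildtype day 7 mouse 3 that difference was -0.75. The change from day 7 to day 14 was 1.09 ± 1.25 in IFNAR-/- cells and 3.70 ± 1.25 in wildtype cells, and in wildtype it was 5.54 without the same mouse. These SE rest on 1 spread shared by the 4 groups, which includes the wildtype day 7 SD of 3.25. In IFNAR-/- cells the day 14 arrays all lay above the day 7 arrays. That change did not pass on all 12 arrays but did in a fit of the IFNAR-/- groups alone. The day 14 genotype difference passed the threshold on all 12 arrays, but in 0 of the 6 fits that left out 1 of the 6 day 14 arrays, where it ranged from -5.86 to -4.36. The 3 wildtype day 14 arrays all had lower 5′ to 3′ and poly-A signals than the IFNAR-/- day 14 arrays. Genotype and these signals therefore cannot be told apart at day 14. Wildtype day 7 mouse 3, which was high in Fbp1, had 0.08 and 2.15, and 1 mouse cannot separate them. With the 5′ to 3′ signal as a covariate the day 14 difference was -5.08 ± 1.76 and no longer passed. It also did not pass after quantile normalization was applied again (-4.66), with a trended and robust prior (-5.20) or without both arrays that stood apart (-5.12). The median of 15 alveolar macrophage markers was -0.60 to 0.04 in IFNAR-/- day 14 cells and -1.33 to -0.47 in wildtype day 14 cells, where Fbp1 was high. Its part in the result was not tested.

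**Figure D1:**
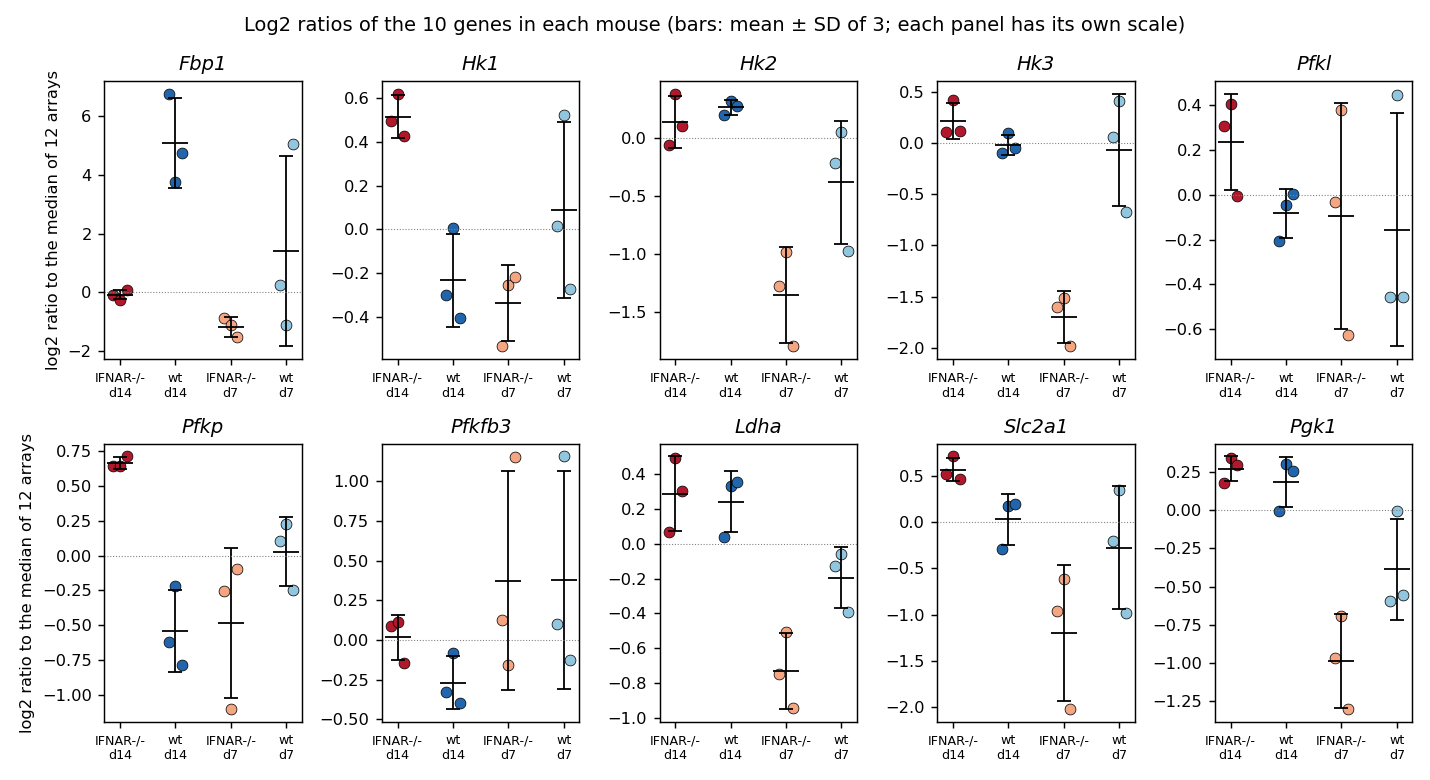
Log2 ratio of each of the 10 genes (y axis, log2 ratio to the median over the 12 arrays, own scale per panel) in each mouse (points) of the 4 groups (x axis), with mean ± SD of 3 mice. Fbp1 sits between 3.78 and 6.78 in wildtype day 14 cells, and Hk3 between -1.99 and -1.51 in IFNAR-/- day 7 cells.

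The genes with the smallest root mean square difference from Fbp1 over the 12 arrays were Rnase2b (1.36), Ang (1.69), Ddx4 (1.86), Slc36a2 (1.95) and Rps25 (1.99, all in log2 units). The median over all 18192 other genes was 3.09, and the lowest of the other 9 members was 3.02. Rnase2b is a ribonuclease of the eosinophil-associated family, Ang encodes angiogenin, Ddx4 is a germ cell RNA helicase, Slc36a2 is an amino acid transporter and Rps25 is a protein of the small ribosomal subunit. Since they were picked for likeness to Fbp1, their values are a description. Rnase2b had log2 ratios of -0.20, -0.83 and 0.15 in IFNAR-/- day 14 cells and 4.11, 1.96 and 2.74 in wildtype day 14 cells. In wildtype day 7 mouse 3, the array that was high in Fbp1, Rnase2b stood at 3.81 and Ang at 3.77. Ang also stood at 2.11 in wildtype day 7 mouse 2, where Fbp1 was at -1.12. Ddx4, Slc36a2 and Rps25 stood at 0.37, 0.56 and 1.27 in wildtype day 7 mouse 3, below their values in wildtype day 14 mice 1 and 3.

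**Figure D2:**
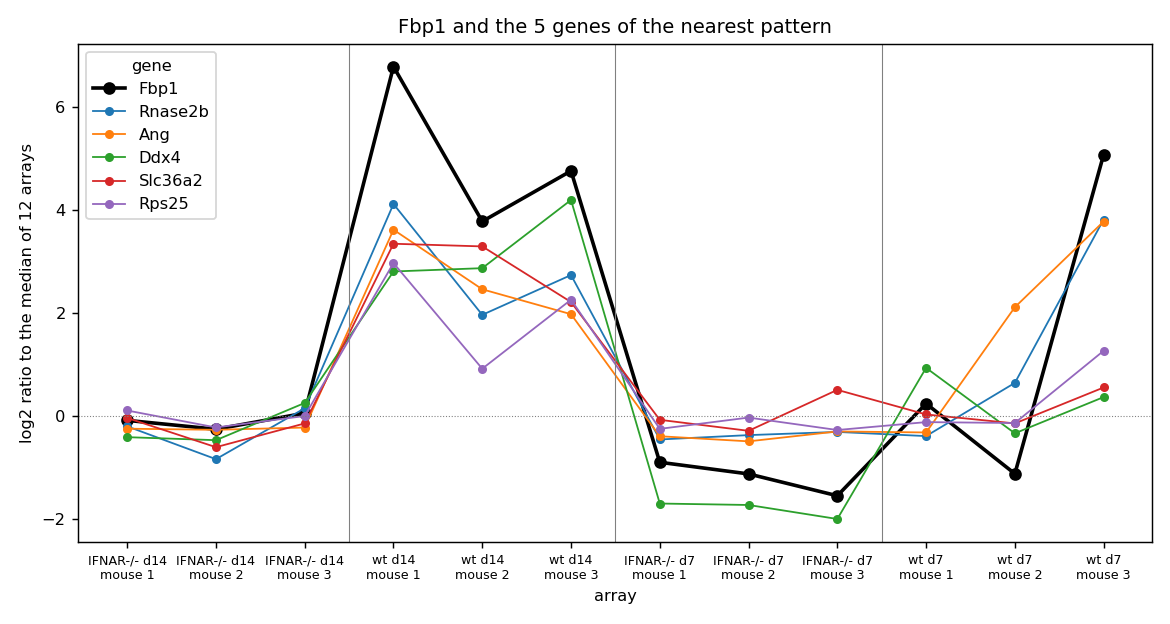
Log2 ratio to the median over the 12 arrays (y axis) of Fbp1 (thick black line) and the 5 genes with the nearest pattern (thin lines) on each of the 12 arrays (x axis, groups divided by vertical lines). All 6 genes stand at 0.92 or above in the 3 wildtype day 14 mice, and Rnase2b and Ang also reach 3.81 and 3.77 in wildtype day 7 mouse 3, with Ang at 2.11 in wildtype day 7 mouse 2.

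Slc2a1, the main glucose transporter of many cell types, was lowest in IFNAR-/- day 7 cells. Its log2 ratio, the mean of 3 probe sets, was 0.52, 0.71 and 0.47 in IFNAR-/- day 14 cells and -0.29, 0.18 and 0.20 in wildtype day 14 cells. In the day 7 groups Slc2a1 was at -0.96, -0.62 and -2.02 in IFNAR-/- cells and -0.20, 0.35 and -0.98 in wildtype cells. The IFNAR-/- arrays lay above the wildtype arrays at day 14 without overlap, by 0.54 ± 0.36 (log2, ± SE), and at day 7 the groups overlapped around a difference of -0.92 ± 0.36. The day 7 difference was -0.51 without both arrays that stood apart. From day 7 to day 14 Slc2a1 was higher by 1.77 ± 0.36 in IFNAR-/- cells and by 0.31 ± 0.36 in wildtype cells.

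Of the hexokinases, Hk3, the form typical of myeloid cells, was the most reduced in IFNAR-/- cells at day 7. Its log2 ratio was 0.11, 0.42 and 0.12 in IFNAR-/- day 14 cells and -0.09, 0.10 and -0.05 in wildtype day 14 cells. At day 7 it was -1.60, -1.51 and -1.99 in IFNAR-/- cells and 0.06, 0.41 and -0.67 in wildtype cells. The IFNAR-/- day 7 arrays were the 3 lowest of all 12, and at day 14 the IFNAR-/- arrays lay just above the wildtype arrays. The genotype difference was 0.23 ± 0.23 at day 14 and -1.63 ± 0.23 at day 7, which at day 7 is 3.10-fold lower in IFNAR-/- cells. Both probe sets gave it, at -1.52 ± 0.24 and -1.75 ± 0.24, and one of them is of a type that can cross-hybridise.

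Hk2, the form that cells induce, had log2 ratios of -0.06, 0.38 and 0.10 in IFNAR-/- day 14 cells and 0.20, 0.32 and 0.28 in wildtype day 14 cells. At day 7 Hk2 stood at -1.28, -0.98 and -1.80 in IFNAR-/- cells and at -0.22, 0.05 and -0.97 in wildtype cells. The day 14 groups overlapped, and the day 7 groups were separated by less than 0.01 between their nearest arrays. The difference was -0.12 ± 0.26 at day 14 and -0.97 ± 0.26 at day 7. Leaving out IFNAR-/- day 7 mouse 3, an array that stood apart, gave -0.75 at day 7. Hk2 was higher at day 14 than at day 7 by 1.50 ± 0.26 in IFNAR-/- cells and by 0.65 ± 0.26 in wildtype cells, without overlap in either.

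Hk1, the form present in most tissues, was instead higher in IFNAR-/- cells at day 14. It stood at 0.50, 0.62 and 0.43 in IFNAR-/- day 14 cells and at -0.30, 0.0055 and -0.41 in wildtype day 14 cells. The day 7 values of Hk1 were -0.53, -0.25 and -0.22 in IFNAR-/- cells and 0.014, 0.52 and -0.27 in wildtype cells. The IFNAR-/- arrays were all above the wildtype arrays at day 14, by 0.75 ± 0.19, and overlapped them at day 7 around a difference of -0.42 ± 0.19. Its probe sets were not alike in size at day 14, with 1.13 ± 0.23 for 1420901_a_at and 0.37 ± 0.19 for 1437974_a_at.

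Pfkp, the platelet-type phosphofructokinase, was the glycolytic member with the widest gap at day 14. Its log2 ratio was 0.64, 0.64 and 0.71 in IFNAR-/- day 14 cells and -0.62, -0.22 and -0.79 in wildtype day 14 cells. The day 7 values of Pfkp were -0.26, -1.10 and -0.10 in IFNAR-/- cells and 0.11, 0.23 and -0.25 in wildtype cells. The day 14 groups lay far apart, with IFNAR-/- cells higher by 1.21 ± 0.24 or 2.31-fold, and the day 7 groups overlapped around -0.51 ± 0.24. The 3 probe sets differed in size at day 14, from 2.23 ± 0.39 for 1430634_a_at through 1.14 ± 0.32 for 1437759_at to 0.26 ± 0.14 for 1416069_at. At day 7 they stood at -0.84 ± 0.39, -0.02 ± 0.32 and -0.68 ± 0.14 in the same order, and only 1416069_at passed per probe set. Over time in wildtype cells they stood at -1.48 ± 0.39, -0.23 ± 0.32 and 0.0014 ± 0.14, and only 1430634_a_at passed. With the 5′ to 3′ signal as a covariate the gene's day 14 difference was 0.65 and no longer passed.

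Pfkl, the liver-type phosphofructokinase, averaged 0.24 ± 0.21 in IFNAR-/- day 14 cells, -0.08 ± 0.11 in wildtype day 14 cells, -0.09 ± 0.50 in IFNAR-/- day 7 cells and -0.16 ± 0.52 in wildtype day 7 cells (SD, n = 3 each). Its genotype difference was 0.32 ± 0.27 at day 14 and 0.06 ± 0.27 at day 7. Pfkfb3 makes the fructose bisphosphate that activates phosphofructokinase. It averaged 0.02 ± 0.14 in IFNAR-/- day 14 cells, -0.27 ± 0.17 in wildtype day 14 cells, 0.37 ± 0.69 in IFNAR-/- day 7 cells and 0.38 ± 0.69 in wildtype day 7 cells. At day 7 each genotype had 1 mouse at 1.16 in Pfkfb3, which were IFNAR-/- mouse 3 and wildtype mouse 2, and the other 4 mice lay between -0.16 and 0.13. For both genes the spread within the day 7 groups was as large as any difference between groups.

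The members of the lower part of glycolysis had one pattern, close between genotypes at day 14 and lower in IFNAR-/- cells at day 7. Pgk1 encodes phosphoglycerate kinase, the first step that yields ATP. Its log2 ratio was 0.18, 0.34 and 0.29 in IFNAR-/- day 14 cells and -0.005, 0.30 and 0.25 in wildtype day 14 cells. The day 7 values of Pgk1 were -0.97, -0.69 and -1.30 in IFNAR-/- cells and -0.60, -0.0066 and -0.56 in wildtype cells. The day 14 groups overlapped around 0.09 ± 0.18, and the day 7 groups did not overlap, at -0.60 ± 0.18. Without IFNAR-/- day 7 mouse 3, an array that stood apart and the lowest in Pgk1, the day 7 difference was -0.44.

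Ldha encodes the lactate dehydrogenase subunit that favours lactate formation. It stood at 0.06, 0.49 and 0.30 in IFNAR-/- day 14 cells and at 0.04, 0.33 and 0.36 in wildtype day 14 cells. At day 7 it stood at -0.75, -0.50 and -0.94 in IFNAR-/- cells and at -0.13, -0.06 and -0.39 in wildtype cells. The genotype difference was 0.04 ± 0.16 at day 14, with overlap, and -0.54 ± 0.16 at day 7, without. Leaving out IFNAR-/- day 7 mouse 3 gave -0.43 at day 7. From day 7 to day 14 Ldha was higher by 1.02 ± 0.16 in IFNAR-/- cells and by 0.44 ± 0.16 in wildtype cells, and Pgk1 was higher by 1.26 ± 0.18 in IFNAR-/- cells and by 0.57 ± 0.18 in wildtype cells. In each of these 4 time comparisons the groups did not overlap.

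Set side by side, 8 of the 10 members were above 0 in the day 14 genotype difference and 9 were below 0 in that of day 7. The members' median was 0.26 at day 14 and -0.57 at day 7, against a median over all genes of 0.0034 and -0.0011. At day 14, 3 members passed an adjusted p of 0.05 over all genes, Hk1 and Pfkp higher and Fbp1 lower, and 5.04% of all genes passed, 1.75% higher and 3.29% lower. Groups of 5 members did not overlap at day 14, 4 higher and 1 lower, beside 23.4% of all genes (10.2% higher and 13.3% lower). At day 7, 1 member, Hk3, passed, lower, and 2.64% of all genes did, 1.29% higher and 1.35% lower. Groups of 4 members did not overlap at day 7, all lower, beside 24% of all genes (12.4% higher and 11.6% lower). Because the members were chosen with these values known, nothing is read from the counts. Hk3 passed whichever day 7 array was left out, though not in a fit of the day 7 groups alone, which gave the same -1.63. Leaving out 1 array, Pfkp passed in 3 of 6 fits at day 14 (from 1.08 to 1.37) and Hk1 in 0 of 6 (from 0.66 to 0.87). Pfkp no longer passed without IFNAR-/- day 14 mouse 3, wildtype day 14 mouse 1 or wildtype day 14 mouse 3. With the 5′ to 3′ signal as a covariate 0 members passed at day 14, and after repeated quantile normalization 1 did. Over 11 settings other than leaving out 1 array, the day 14 difference passed in 10 for Pfkp and in 6 for Hk1 (from 0.63 to 1.13).

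**Figure D3:**
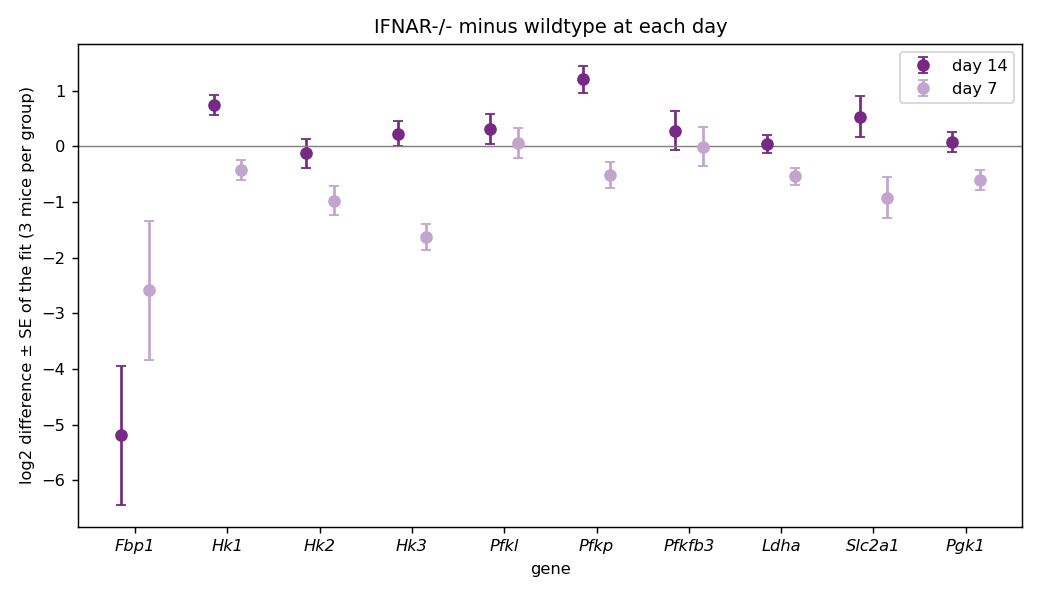
IFNAR-/- minus wildtype log2 difference (y axis) of each gene (x axis) at day 14 (dark) and day 7 (light), with the SE of the fit and 3 mice per group. Fbp1 is below 0 at both days, while Hk1, Hk3, Pfkp and Slc2a1 lie above 0 at day 14 and below 0 at day 7. Ldha, Pgk1 and Pfkfb3 have the same signs, with Ldha and Pgk1 near 0 at day 14 and Pfkfb3 near 0 at day 7.

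From day 7 to day 14, 7 members passed in IFNAR-/- cells, all higher, and 12.3% of all genes passed, 4.08% higher and 8.25% lower. In wildtype cells 0 members passed, and 7.98% of all genes did, 3.88% higher and 4.1% lower. Groups of 8 members in IFNAR-/- cells did not overlap, all higher, beside 34% of all genes (16.2% higher and 17.8% lower). In wildtype cells groups of 3 did not overlap, all higher, beside 31.1% of all genes (16% higher and 15.2% lower). The members' median time difference was 1.12 in IFNAR-/- cells and 0.19 in wildtype cells. The 7 were Hk1, Hk2, Hk3, Pfkp, Ldha, Slc2a1 and Pgk1, and Fbp1 was the other of the 8 without overlap. Of the 7, 6 passed whichever IFNAR-/- array was left out. Hk1 (0.85 ± 0.19) did not pass without IFNAR-/- day 7 mouse 1, at 0.75. Without both arrays that stood apart Hk1 was at 0.85 and Slc2a1 at 1.28, and neither passed. The genotype difference at day 14 minus that at day 7 passed for Hk1 (1.17 ± 0.26), Hk3 (1.87 ± 0.33) and Pfkp (1.72 ± 0.34), and 2.48% of all genes passed, 1.14% higher and 1.34% lower. Of these, Hk3 passed whichever array was left out, Pfkp in 6 of 12 such fits (from 1.41 to 1.92) and Hk1 in 1 of 12 (from 0.95 to 1.35). With the 5′ to 3′ signal or the poly-A signal as a covariate 0 of the 3 passed, with values of 1.01 and 1.33 for Hk1, 1.95 and 1.76 for Hk3, and 0.94 and 1.98 for Pfkp in these 2 fits. All these comparisons share arrays, so a low IFNAR-/- day 7 group enters 3 of them.

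**Figure D4:**
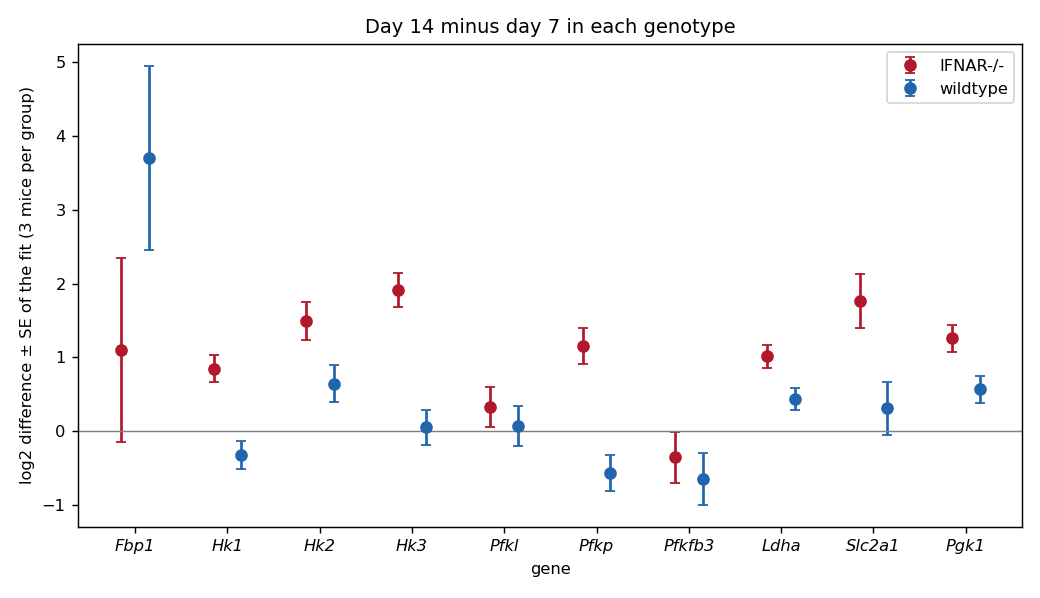
Day 14 minus day 7 log2 difference (y axis) of each gene (x axis) in IFNAR-/- (red) and wildtype (blue) cells, with the SE of the fit and 3 mice per group. In IFNAR-/- cells the 7 genes that passed lie between 0.85 and 1.92. Fbp1, which did not pass, stands at 1.09 ± 1.25 in IFNAR-/- and at 3.70 ± 1.25 in wildtype cells.

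Markers of some cell types moved with the same groups. Of 11 dendritic cell markers 8 fell in IFNAR-/- relative to wildtype cells at day 7 (median -1.14), the comparison in which Hk2, Hk3, Pgk1 and Ldha were lower. Their median log2 ratio per array was -0.52 to -0.36 in IFNAR-/- day 7 cells and 0.11 to 0.70 in wildtype day 7 cells. Of 15 alveolar macrophage markers 0 passed at day 7, 4 rose in IFNAR-/- cells at day 14 (median 0.76), and with time 7 fell in IFNAR-/- cells and 8 in wildtype cells. Of 11 T and NK cell markers 5 rose in IFNAR-/- cells at day 14 (median 0.83). From day 7 to day 14 in IFNAR-/- cells, the comparison in which 7 members were higher, 6 of 11 dendritic cell markers (median 0.77) and 6 of 11 T and NK cell markers (median 1.07) rose. The genotype difference at day 14 minus that at day 7 was above 0 past the threshold for 4 genes of each of these lists (medians 1.59 for dendritic cell and 1.48 for T and NK cell markers). Of all genes 5.04% passed at day 14, 2.64% at day 7 and 2.48% in the change between them. Over time 12.3% passed in IFNAR-/- and 7.98% in wildtype cells. Of 7 monocyte markers 2 fell in IFNAR-/- cells at day 7, 2 rose at day 14 and 2 rose over time in IFNAR-/- cells. The neutrophil, B cell, endothelial and fibroblast lists had 0 or 1 calls in each comparison, and the lung epithelial list at most 2. The part of these markers in the members' values was not tested.

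Beyond the 10 members, 105 other genes of glycolysis, gluconeogenesis, sugar transport, their regulators, the pentose phosphate path, pyruvate and citric acid metabolism and glycogen were measured. All gene lists were chosen with earlier results of these data known. The shares and adjusted p of their genes are therefore a description and no independent support. At day 14 10 of the 105 passed limma's test between genotypes, 2 higher and 8 lower in IFNAR-/- cells, or 9.5%, beside 5.04% of all genes, with a median difference of 0.01. At day 7 3 passed, all lower, or 2.9%, beside 2.64%. From day 7 to day 14 18 passed in IFNAR-/- cells, 10 higher and 8 lower, and 9 in wildtype cells, 7 higher and 2 lower, or 17.1% and 8.6%, beside 12.3% and 7.98%.

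Genes of gluconeogenesis next to Fbp1 stood among the day 14 calls, with 1 of 11 higher and 3 lower in IFNAR-/- cells. These are 36.4% of the list, beside 5.04% of all genes, and nothing is read from this share of a list chosen with earlier results known. The list did not move to 1 side: 5 of the 11 were above 0 and 6 below, with a median of -0.00023. Gpt2, a mitochondrial alanine aminotransferase that feeds alanine into pyruvate, had log2 ratios of -1.07, -1.33 and -0.92 in IFNAR-/- day 14 cells and 0.94, 0.37 and 1.35 in wildtype day 14 cells. Its difference was -1.99 ± 0.26 (limma adjusted p = 0.00365). Pck2, the mitochondrial form of the carboxykinase that starts gluconeogenesis from oxaloacetate, fell by 0.93 ± 0.17 (adjusted p = 0.0153). Slc37a4, which carries glucose phosphate into the endoplasmic reticulum, fell by 0.68 ± 0.14 (adjusted p = 0.024). Pcx, pyruvate carboxylase, was the 1 that rose, by 0.85 ± 0.21 (adjusted p = 0.0467). Gpt2 passed whichever day 14 array was left out, Pck2 did not pass without wildtype day 14 mouse 2 (-0.76 to -1.13 over the 6 fits), Slc37a4 passed without IFNAR-/- mouse 3 or wildtype mouse 2 and in no other of the 6 fits (-0.77 to -0.61), and Pcx in 0 of 6 (0.79 to 0.92).

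In glycolysis proper 1 of 16 other genes passed at day 14, Eno2, the neuron-type enolase. It fell by 1.14 ± 0.23 in IFNAR-/- cells (adjusted p = 0.0222) and did not pass without IFNAR-/- mouse 2, wildtype mouse 1 or wildtype mouse 3 (-1.30 to -0.95 over the 6 fits with an array left out). Of 12 sugar and lactate transporters, Slc2a6 rose by 1.12 ± 0.28 (adjusted p = 0.0429) and Slc2a9, a urate and fructose carrier, fell by 0.52 ± 0.11 (adjusted p = 0.0222). Among 20 regulators, Pdp1, the phosphatase that turns pyruvate dehydrogenase on, fell by 1.26 ± 0.22 (adjusted p = 0.0126), and Arnt, the partner of HIF-1 alpha, by 0.41 ± 0.09 (adjusted p = 0.0242). Sdhd, a subunit of succinate dehydrogenase, fell by 0.68 ± 0.14 (adjusted p = 0.0222). Of these, Pdp1 passed whichever day 14 array was left out and Slc2a6 in 0 of 6 such fits (0.98 to 1.22). Slc2a9 did not pass without IFNAR-/- mouse 1 or any 1 of the wildtype mice (-0.60 to -0.40). Arnt did not pass without mouse 1 or 3 of the IFNAR-/- group or mouse 1 or 2 of the wildtype group (-0.45 to -0.35), nor Sdhd without IFNAR-/- mouse 3, wildtype mouse 1 or wildtype mouse 3 (-0.77 to -0.57). With the 5′ to 3′ signal as a covariate, none of the 10 day 14 calls in the 105 genes remained, and 37 of all 18193 genes passed where 917 had.

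At day 7 the calls were few. Got1, the cytosolic aspartate aminotransferase, had log2 ratios of -0.60, -1.06 and -1.13 in IFNAR-/- day 7 cells and 0.04, 0.20 and 0.23 in wildtype day 7 cells. It fell by 1.09 ± 0.18 (limma adjusted p = 0.00841) and passed whichever array was left out. Prps1, which makes the ribose donor of nucleotides, fell by 1.21 ± 0.24 (adjusted p = 0.0249), and Mpc1, a part of the mitochondrial pyruvate carrier, by 0.75 ± 0.14 (adjusted p = 0.0211). Neither passed without any 1 of the 3 IFNAR-/- day 7 mice, nor Prps1 without wildtype mouse 1 (-1.49 to -0.87 over 6 fits) or Mpc1 without wildtype mouse 2 (-0.89 to -0.60). Of the 16 other glycolytic genes 14 were below 0, with a median of -0.12 and 0 past the threshold. The lowest p among them was that of Pkm, pyruvate kinase (-0.64 ± 0.23, adjusted p = 0.209). The lactate carrier Slc16a1 stood at -0.53 ± 0.15 (adjusted p = 0.0898) and Pdk4, a kinase that turns pyruvate dehydrogenase off, at 1.23 ± 0.32 (adjusted p = 0.0703).

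**Figure D5:**
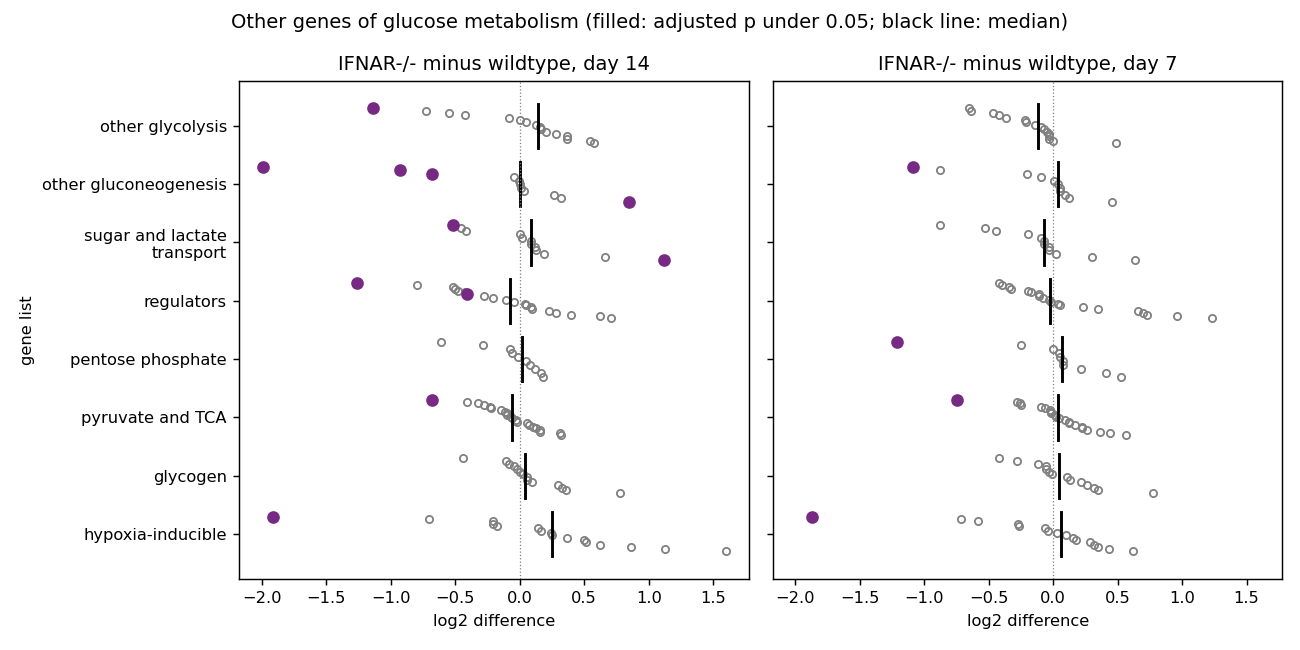
IFNAR-/- minus wildtype log2 difference (x axis) of each gene (points) in 8 lists around the members (y axis) at day 14 (left) and day 7 (right), filled where the adjusted p is under 0.05, with the median as a black line. Filled points are few and lie on both sides of 0 at day 14, from Gpt2 at -1.99 to Slc2a6 at 1.12.

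With time in IFNAR-/- cells, 4 of the 16 other glycolytic genes rose and 0 fell. Pkm rose by 1.22 ± 0.23 (limma adjusted p = 0.00732), Pgam1, a mutase, by 0.64 ± 0.17 (adjusted p = 0.0314), Tpi1, triose phosphate isomerase, by 1.20 ± 0.33 (adjusted p = 0.0385) and Pklr, the liver and red cell pyruvate kinase, by 0.44 ± 0.13 (adjusted p = 0.0469). In wildtype cells Eno2 rose by 0.97 ± 0.23 (adjusted p = 0.0286) and no other did. Of the transporters in IFNAR-/- cells, Slc2a6 rose by 1.59 ± 0.28 (adjusted p = 0.00519) and the lactate and pyruvate carrier Slc16a7 fell by 1.81 ± 0.18 (adjusted p = 5e-04). Slc16a7 also fell in wildtype cells, by 0.76 ± 0.18 (adjusted p = 0.0299). Slc37a4 and Slc2a9 rose in wildtype cells by 0.77 ± 0.14 and 0.45 ± 0.11 (adjusted p = 0.00984 and 0.0285).

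Of the 4 kinases of pyruvate dehydrogenase, 2 fell with time in IFNAR-/- cells, Pdk4 by 1.92 ± 0.32 (limma adjusted p = 0.00382) and Pdk2 by 1.16 ± 0.21 (adjusted p = 0.0059). Pdk1 (0.23 ± 0.16, adjusted p = 0.353) and Pdk3 (0.30 ± 0.16, adjusted p = 0.232) did not pass; both are given after their values were seen. Prkaa1, the catalytic subunit of the energy sensor AMPK, fell by 1.76 ± 0.46 (adjusted p = 0.0306), and Mlx, a partner of glucose-sensing factors, rose by 0.53 ± 0.13 (adjusted p = 0.021). Pygl, which releases glucose from glycogen, fell in both genotypes, by 1.46 ± 0.23 in IFNAR-/- cells (adjusted p = 0.00345) and by 1.01 ± 0.23 in wildtype cells (adjusted p = 0.025). Gyg, the primer of glycogen, fell by 0.60 ± 0.12 in IFNAR-/- cells (adjusted p = 0.0113). Taldo1 and Suclg2 fell in IFNAR-/- cells by 0.86 ± 0.16 and 0.96 ± 0.17 (adjusted p = 0.00684 and 0.00603), and Got1 and Prps1 rose by 0.89 ± 0.18 and 1.07 ± 0.24 (adjusted p = 0.00879 and 0.0171). Sdhb rose in both genotypes, by 0.52 ± 0.12 in IFNAR-/- cells and by 0.55 ± 0.12 in wildtype cells (adjusted p = 0.0159 and 0.018). Mdh2 rose in IFNAR-/- cells by 0.54 ± 0.14 (adjusted p = 0.0351), and in wildtype cells Mlxip, Suclg1 and Fh1 rose by 0.55 ± 0.14, 0.37 ± 0.10 and 0.56 ± 0.15 (adjusted p = 0.0409, 0.0438 and 0.0413). Of the calls over time in these lists and the hypoxia list below, 12 of 22 in IFNAR-/- cells and 2 of 12 in wildtype cells held whichever array was left out. The 2 in wildtype were Slc37a4 and Egln3, and the 12 in IFNAR-/- cells were Pkm, Got1, Slc2a6, Slc16a7, Pdk2, Pdk4, Taldo1, Suclg2, Gyg, Pygl, Egln3 and Ero1a.

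The change of the genotype difference between the days passed for Slc2a6 (2.00 ± 0.39, limma adjusted p = 0.028) and Got1 (1.12 ± 0.25, adjusted p = 0.0436), or 1.9% of the 105 genes, beside 2.48% of all genes. Slc2a6 had log2 ratios of 0.75, 1.22 and 0.91 in IFNAR-/- day 14 cells and -0.05, -0.44 and 0.02 in wildtype day 14 cells. At day 7 Slc2a6 had -1.11, -0.46 and -0.31 in IFNAR-/- cells and 0.16, 0.83 and -0.26 in wildtype cells. With 1 of the 12 arrays left out in turn, Slc2a6 passed in 5 fits (1.70 to 2.25) and Got1 in 2 (0.92 to 1.28). The lowest p of the other glycolytic genes was that of Pkm (1.01 ± 0.33, adjusted p = 0.13), and of the regulators that of Pdk2 (-1.25 ± 0.29, adjusted p = 0.0522).

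HIF-1 targets outside glucose metabolism were a further list, and its part in the members' values was not tested. Of 16 such genes, Car9, a carbonic anhydrase of the cell surface, fell in IFNAR-/- cells at both days, by 1.91 ± 0.15 at day 14 (limma adjusted p = 0.000799) and by 1.87 ± 0.15 at day 7 (adjusted p = 0.000139). Its log2 ratio was -0.87, -1.17 and -1.13 in IFNAR-/- day 14 cells and 0.80, 0.78 and 0.99 in wildtype day 14 cells, and -1.20, -0.94 and -1.28 in IFNAR-/- day 7 cells and 0.63, 1.02 and 0.53 in wildtype day 7 cells. No other gene of the 16 passed between genotypes, and the list's median at day 14 was 0.25. Car9 passed with every array left out in turn and with the 5′ to 3′ covariate. Over time in IFNAR-/- cells, the comparison in which 7 members were higher, 12 of the 16 were above 0 (median 0.31). There 4 rose and 0 fell, or 25%, beside 12.3% of all genes. In wildtype cells 11 were above 0 (median 0.18), and 2 rose and 1 fell, or 18.8%, beside 7.98%. With time in IFNAR-/- cells Egln3, a prolyl hydroxylase that marks HIF for destruction, rose by 2.12 ± 0.28 (adjusted p = 0.00141), Ero1a by 1.10 ± 0.21 (adjusted p = 0.00817), Ak4 by 1.11 ± 0.27 (adjusted p = 0.0243) and Ndrg1 by 1.00 ± 0.27 (adjusted p = 0.0349). In wildtype cells Egln3 rose by 1.78 ± 0.28 (adjusted p = 0.00469) and Ankrd37 by 1.27 ± 0.32 (adjusted p = 0.0341), while Vegfa, a blood vessel growth factor, fell by 1.74 ± 0.45 (adjusted p = 0.0376). Hif1a itself differed by 0.62 ± 0.27 at day 14 (adjusted p = 0.226) and by -0.40 ± 0.27 at day 7 (adjusted p = 0.656). Myc, another driver of glycolytic genes, differed by -0.42 ± 0.29 at day 14 (adjusted p = 0.449) and by 0.66 ± 0.29 at day 7 (adjusted p = 0.336).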

How the data were processed

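RNA of lung CD11c+ cells from 12 single mice was measured on Affymetrix arrays. Per the submitters' processing notes the values were made with RMA, with no version given. The deposited value is a linear ratio to about each probe set's own median. No source states this division, and the values show it: for 100% of probe sets the 12 values had a median that differed from 1 by at most 0.02. Detection and levels are therefore unknown, and the number of arrays limits precision. The sample descriptions tied each column to a mouse.

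The deposited ratios were taken as log2 with no further normalization, and the probe sets with 1 symbol (34945 of 45101) were averaged to 18193 genes. 9160 probe sets had no symbol and 932 several, and these were not used. limma 3.58.1 in R 4.3.3 fitted 1 mean for each of 4 groups (8 residual degrees of freedom, prior 3.21). Tests were two-sided, and a gene passed where its p, adjusted by Benjamini-Hochberg across the whole table, was under 0.05. SE are those of this fit. No p is given for the 10 members. The fit was tested on simulated data.

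The members and gene lists were chosen with earlier results of these data known. Of 244 listed genes 222 were measured. Named were all members, up to 4 of the lowest p of each list past the threshold in a comparison, in 4 lists the lowest p where none passed, Hif1a, Myc, Ifnar1 and the 5 genes nearest to Fbp1. Mice are separate animals. Alternatives were a repeated quantile normalization, median centring, the probe set with the largest SD, a filter on SD, array weights, a trended and robust prior, a block for mouse number, the compared groups alone, both arrays that stood apart left out, RNA-signal covariates and each array left out.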

Additional observations from a re-analysis of the deposited data

Results flagged for a closer look

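The genotype difference of Slc2a6 changed between the days by 2.00 on the log2 scale (limma adjusted p = 0.028): it was 1.12 at day 14 and -0.88 at day 7. That of Got1 changed by 1.12 (limma adjusted p = 0.0436), with 0.03 at day 14 and -1.09 at day 7. For Hk3 the IFNAR-/- arrays lay just above the wildtype arrays at day 14, where the mean difference of 0.23 ± 0.23 (SE) did not pass. On probe set 1435490_at alone the day 14 groups overlapped. At day 7 the IFNAR-/- arrays of Hk3 all lay below the wildtype arrays, by a mean of 1.63, so that the genotype difference changed by 1.87. That change passed the threshold in the fit over all genes, but as Hk3 was chosen with its values known, it is given as a description. The lists that hold Slc2a6 and Got1 were also chosen with earlier results known, so their values are a description as well. Since every group holds 3 arrays, none was left out of the main fit as an outlier. Fits without both arrays that stood apart are given beside it.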

How the results depend on the processing

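Counts of the 105 other genes past the threshold were 10, 3, 18, 9 and 2 in the genotype difference at day 14, the same at day 7, the time difference in IFNAR-/- cells, that in wildtype cells and the change of the genotype difference. With 1 array left out they ranged from 3 to 6, 1 to 6, 12 to 17, 2 to 5 and 0 to 4. The 5′ to 3′ covariate left 0 at day 14, 0 in wildtype time and 0 in the change of the difference. The poly-A covariate left 1 at day 7, 1 in wildtype time and 1 in the change. Array weights gave 12 at day 7, 33 in IFNAR-/- time, 17 in wildtype time and 13 in the change. Without both arrays that stood apart there were 8 in IFNAR-/- time, 14 in wildtype time and 1 in the change. A fit of only the compared groups gave 4 at day 14. The labels do not say what the mouse number marks. Deviations of same-numbered mice correlated at -0.397 to 0.232 over 18 pairs, which with 3 arrays per group does not settle whether they share a batch. With the number as a replicate block the change passed for 1 gene.

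The Fbp1 difference ranged, with 1 array left out, from -5.86 to -4.36 at day 14, -3.84 to -0.75 at day 7, 0.92 to 1.24 over time in IFNAR-/- cells, 2.45 to 5.54 over time in wildtype cells and -4.45 to -1.35 for the change. At day 7, over time in wildtype cells and for the change, the ends -0.75, 5.54 and -4.45 are without wildtype day 7 mouse 3, and the ends -3.84, 2.45 and -1.35 without wildtype day 7 mouse 2. No result turned its direction while past the threshold. The cause of these shifts was not tested.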
